A study of Rattus norvegicus with 6 samples.

Results

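Liver cells change drugs and other foreign compounds with many enzymes besides the cytochromes P450, and the genes of 6 classes of such enzymes were compared between fibrotic and control rat livers. The classes were the UDP-glucuronosyltransferases (Ugt), cytosolic sulfotransferases (Sult), carboxylesterases (Ces), aldehyde oxidases (Aox), flavin-containing monooxygenases (Fmo) and epoxide hydrolases (Ephx). Members were all genes of the expression table whose symbol begins with one of these class names followed by a digit, and 38 of 19616 genes met this rule, with 6 in Ugt, 9 in Sult, 11 in Ces, 3 in Aox, 6 in Fmo and 3 in Ephx. Symbol Ces2a stood on 2 of these rows, a protein-coding gene and a long intergenic noncoding RNA. The study sequenced liver RNA, after removal of ribosomal RNA, from 3 rats with fibrosis (FL group, rats FL2, FL5 and FL12) and 3 controls (CL group, rats CL5, CL6 and CL7), with 1 library for each rat. The animals were male Sprague Dawley (SD) rats of unstated age. FL rats had received intraperitoneal carbon tetrachloride (CCl4) mixed with olive oil at 2 mL/kg, in 2 injections a week over 5 weeks. CL rats had received olive oil alone in an equal volume. Levels are FPKM, in which fragments are scaled by transcript length and by library size, and values of single rats stand in the order CL5, CL6 and CL7, then FL2, FL5 and FL12.

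Oxidases and hydrolases of these classes open or add a reactive group on a compound, and transferases attach a polar one. Ugt enzymes sit in the endoplasmic reticulum and add glucuronic acid from UDP-glucuronate, whereas Sult enzymes are cytosolic and add sulfate from the donor PAPS. Ces enzymes split esters and amides, Ephx enzymes add water to epoxides, Fmo enzymes oxidize soft nitrogen and sulfur atoms with the help of NADPH, and Aox enzymes oxidize aldehydes and nitrogen-containing rings with a molybdenum cofactor. Hepatocytes are known as a main site of all of them except for single members that belong to skin, lung, brain or gut.

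In fibrotic livers, a leading Ces and a leading Sult member and Aox4 fell, 2 Ces members and 1 Fmo member rose, and no Ugt or Ephx member passed the test. Of the 38 members, 31 had a mean of at least 0.1 FPKM and were tested with limma on log2(FPKM + 0.1), a scale that understates the change of low genes. With a Benjamini-Hochberg adjusted p under 0.05, 3 members were higher in the FL group (Ces2c, Ces4a and Fmo5) against 16.9% of all 14864 genes tested, and Aox4, Ces1d and Sult1c3 were among those lower, against 1.94%. With a fold change of at least 2 in addition, 1 member was upregulated (Ces2c) against 9.29% of all genes, and 3 were downregulated (Aox4, Ces1d and Sult1c3) against 0.935%. All 3 FL rats lay above all 3 CL rats for 9 members (35.7% of all genes) and below them for 5 members (4.78% of all genes). The counts rested on single rats, since leaving out CL7 left 1 member higher and leaving out FL2 raised the number of higher members to 6. Without CL6 or CL7, 1 member was downregulated, and without CL5, 2 were upregulated.

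Most genes of the table were shifted upwards, with a median log2 fold change of 0.29 over all genes tested, which became 0.08 with median scaling of the rats and -0.04 with quantile normalization. The 31 members had a median of 0.26, or -0.03 relative to all genes. Of these, 19 had a positive and 12 a negative log2 fold change, and with either scaling 16 were positive and 15 negative. The 7 members under the filter, listed after their values were seen, were Ces1a, the noncoding Ces2a row, Ephx3, Fmo6, Sult1d1, Sult4a1 and Ugt8. Their means over 6 rats reached at most 0.0933 FPKM, in Sult4a1, and Ugt8 was listed at 0 in each rat.

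The liver label was checked with marker genes. Hepatocyte markers had the highest levels, and their sum over 10 of 10 genes was 55326, 52400 and 53072 FPKM in the CL rats and 46752, 46475 and 44843 FPKM in the FL rats, led by Alb. None of the 10 passed the adjusted p of limma, and 1 had an unadjusted p under 0.05 (Apoa1, with a log2 fold change of 0.73). Of the 10, 5 had a positive and 5 a negative log2 fold change. The FL rats all lay below the CL rats for 5 of them (4.78% of all genes) and above for 2 (35.7% of all genes). Alb had 33392, 31431 and 31992 FPKM in the CL rats and 24149, 25052 and 25209 FPKM in the FL rats. Its log2 fold change was -0.38 with a moderated standard error of 0.98. The test could therefore not detect a change of this size, although the groups did not overlap. Of 9 tested markers of stellate cells or myofibroblasts, 6 were upregulated (9.29% of all genes), and the sum over 10 genes was 82.2, 86.0 and 80.2 FPKM in the CL rats and 203, 545 and 498 FPKM in the FL rats, led by Col3a1. FL2 held less of these markers than FL5 and FL12. Among 8 macrophage markers, led by Clec4f, 4 were higher (16.9% of all genes), 3 of them upregulated, with sums of 137, 128 and 135 FPKM and of 289, 273 and 167 FPKM. Of 6 cholangiocyte markers, 1 (Spp1) was upregulated, with sums of 5.75, 10.6 and 6.32 FPKM and of 12.7, 68.7 and 42.4 FPKM. Spp1 alone held 0.37, 2.81 and 0.74 FPKM of these sums and then 7.34, 60.6 and 31.1 FPKM. Of the 6, 4 had a positive and 2 a negative log2 fold change. Of 5 cycling markers, led by Mki67, 1 was upregulated, with sums of 2.29, 4.16 and 2.59 FPKM and of 3.19, 15.8 and 13.4 FPKM. Of 6 endothelial markers 5 had a row, led by Kdr, and 1 (Stab2) was higher, with sums of 64.5, 65.4 and 57.3 FPKM and of 79.1, 66.5 and 74.3 FPKM. Of 7 lymphocyte markers, led by Cd8a, 6 were tested and 0 passed limma's adjusted p, with 1 at an unadjusted p under 0.05 and sums of 2.26, 1.88 and 2.38 FPKM and of 4.23, 5.61 and 2.34 FPKM. Markers of enterocytes and kidney cells, which hold some of the same enzymes, had 3 of 4 genes in the table, none high enough to be tested. They summed to 0.01, 0.01 and 0.05 FPKM and to 0.03, 0.09 and 0.18 FPKM, led by Vil1, and Umod was listed at 0 in all rats. The calls of Mki67 and of the macrophage marker C1qa were lost with both scalings, and that of Lum, a stellate cell marker, with quantile normalization. Calls of markers were not rerun with single rats left out. In bulk liver, fewer cells of a type and less RNA per cell cannot be told apart, and the part of the cell mixture in the results below was not tested.

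Summed over members, Sult held 679 ± 52.1 FPKM in the CL group and 517 ± 93.8 in the FL group (mean ± SD, n = 3), Ephx 551 ± 116 and 730 ± 401, and Ugt 403 ± 112 and 352 ± 99.6. Ces held 247 ± 56.2 and 189 ± 22.3 FPKM, and Aox 226 ± 25.8 and 274 ± 55.6. In 2 classes the sum of each FL rat lay below that of each CL rat. These were Sult, with 723, 691 and 621 FPKM in the CL rats against 600, 536 and 415 in the FL rats, and Ces, with 219, 312 and 211 FPKM against 194, 165 and 209, where CL7 and FL12 nearly met. In Ugt, Aox and Ephx the sums of the groups overlapped. Ephx sums of the FL group spread most, from 275 FPKM in FL2 to 889 in FL5 and 1027 in FL12.

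Class medians rest on few genes. Ephx had only 2 tested genes, with log2 fold changes of opposite sign (0.22 for Ephx1 and -0.84 for Ephx2), and Aox had 3. Relative to all genes, the median log2 fold change was -0.60 for Ephx, -0.47 for Ugt, -0.10 for Aox, -0.09 for Sult, 0.10 for Ces and 0.23 for Fmo. With median scaling and with quantile normalization each class kept this sign, but the Fmo median became -0.24 with the filter at a mean of 1 FPKM, which leaves out Fmo2, and 0.05 without a filter. With the filter at 1 FPKM the Sult median was -0.45 (-0.05 without a filter), and the Ephx median was -0.25 without a filter and -0.24 with quantile normalization. With quantile normalization the Ugt and Aox medians were both -0.26 and the Ces median 0.31. Other alternatives moved the Ces median to 0.18 (pseudocount of 1) and the Aox median to -0.05 (filter at 1 FPKM) and -0.06 (no filter). Single rats moved all 6 medians. They lay between -0.99 (without FL5) and -0.38 (without FL12) for Ephx, between -0.56 (without CL7) and -0.02 (without FL12) for Ugt, and between -0.20 (without FL5) and -0.00266 (without CL5) for Sult. For Fmo they lay between 0.14 (without FL12) and 0.36 (without FL2). The sign itself turned for Aox, between -0.27 (without CL7) and 0.20 (without CL6), and for Ces, between -0.14 (without FL2) and 0.41 (without FL5). The largest decrease in each of Aox, Ces and Sult stood beside members with positive log2 fold changes.

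**Figure D1:**
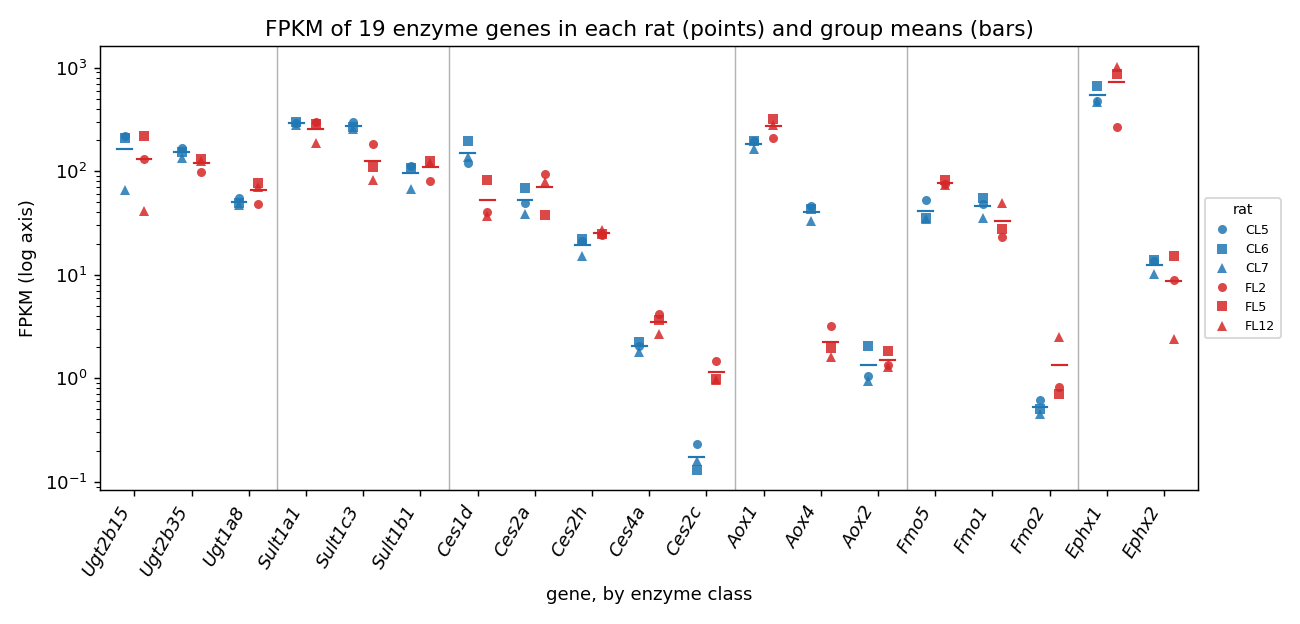
FPKM (log axis) of 19 members by enzyme class in each of the 3 CL rats (blue) and 3 FL rats (red), with group means as bars and circles for CL5 and FL2, squares for CL6 and FL5 and triangles for CL7 and FL12. Aox4 lies between 32.9 and 46.0 FPKM in CL rats and between 1.62 and 3.17 FPKM in FL rats, while Ephx1 of FL2 lies apart from FL5 and FL12.

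Among the aldehyde oxidases, Aox1 and Aox4 went apart. Aox1, the main aldehyde oxidase of many tissues, stood at 194, 195 and 162 FPKM in the CL rats and at 211, 322 and 278 FPKM in the FL rats. Each FL rat lay above each CL rat, and FL2 was nearest to them. The log2 fold change was 0.54 (standard error 0.19), and limma gave an adjusted p of 0.0875, so that Aox1 did not pass. Without FL2 it was 0.71 with an adjusted p of 0.0203 by limma, in a range of 0.0203 to 0.278 over all alternatives.

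Aox4, known best from the skin and the Harderian gland of rodents as an oxidase of retinaldehyde, had 46.0, 43.1 and 32.9 FPKM in the CL rats and 3.17, 1.97 and 1.62 FPKM in the FL rats. The groups lay far apart, and the lowest CL rat was over any FL rat by more than the whole spread of either group. Aox4 was 17.8-fold lower in the FL group on the scale of the test, with a log2 fold change of -4.16 (standard error 0.24, limma adjusted p = 0.000364), and passed in all 14 alternatives. Its share of the Aox sum was 19.1%, 18.0% and 16.8% in the CL rats and 1.47%, 0.605% and 0.576% in the FL rats. In CL rats, its mean was above that of 96.3% of all genes in the table. Aox2, another aldehyde oxidase, was low, with 1.06, 2.06 and 0.95 FPKM and 1.35, 1.85 and 1.28 FPKM, and the groups overlapped. Its log2 fold change of 0.19 became -0.02 with median scaling, -0.31 with quantile normalization and -0.01 without CL7. In the gene order of RefSeq (GRCr8), Aox1, Aox3, Aox4, Rpl21l4 and Aox2 follow each other on chromosome 9. Aox3 had no row under that symbol, so sums and shares of Aox leave it out. The Aox genes resemble each other in sequence. Only reads with 1 location were kept, so reads that they share could be lost and their values are uncertain.

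Of the flavin-containing monooxygenases, Fmo5 rose. Fmo5, which inserts oxygen beside ketones and differs in its substrates from the other members, had 52.6, 35.7 and 34.5 FPKM in CL rats and 75.7, 81.3 and 73.4 FPKM in FL rats. The FL rats were near each other and above all CL rats. Fmo5 had a log2 fold change of 0.93 (standard error 0.17, limma adjusted p = 0.0118). The Fmo5 call was lost only without CL7 (0.0507, in a range from 0.00873 for limma's adjusted p).

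Fmo1, an oxidase of many drugs in rat liver, had 47.9, 54.9 and 35.3 FPKM in CL rats and 23.3, 27.9 and 48.7 FPKM in FL rats. FL2 and FL5 were below the CL rats, and FL12 was among them. Its log2 fold change was -0.52 (limma adjusted p = 0.223), and without FL12 it was -0.83 (adjusted p = 0.0484, in a range to 0.456). Fmo2, best known from lung, had 0.61, 0.51 and 0.45 FPKM and then 0.83, 0.71 and 2.49 FPKM. All FL rats were above the CL rats, and FL12 stood out. Fmo2 had a log2 fold change of 1.01 that did not pass (limma adjusted p = 0.137), and without FL12 it was 0.49. Another member, Fmo4, chosen after its values were seen, lay between 2.69 and 3.06 FPKM in CL rats and between 3.24 and 4.91 FPKM in FL rats, without overlap.

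Among the carboxylesterase members, the leading Ces1 gene fell and a low Ces2 gene rose. Ces1d, an esterase of the hepatocyte endoplasmic reticulum that splits ester drugs and lipid esters, had 119, 195 and 138 FPKM in CL rats and 40.4, 81.9 and 37.0 FPKM in FL rats. FL5 kept the most among FL rats, and the groups did not overlap. It fell by a log2 fold change of -1.57 (standard error 0.32, limma adjusted p = 0.0149), or 2.97-fold lower. Leaving out CL6 or CL7 ended the call with adjusted p of 0.0506 and 0.0521 by limma, in a range of 0.0098 to 0.0521. Ces1d gave 54.4%, 62.4% and 65.6% of the Ces sum in CL rats, and 20.8%, 49.6% and 17.7% in FL rats. Another Ces1 gene, Ces1a, was under the filter. RefSeq places Ces1e and Ces1c on either side of Ces1d, and neither had a row under that symbol. Sums and shares of Ces leave them out.

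Ces2c, of the Ces2 branch known for hydrolysing drug esters in gut and liver, had 0.23, 0.13 and 0.16 FPKM in CL rats and 1.47, 0.99 and 0.97 FPKM in FL rats. Each FL rat exceeded each CL rat, at low levels in both groups. Ces2c was 4.53-fold higher on the scale of the test, with a log2 fold change of 2.18 (standard error 0.29, limma adjusted p = 0.00487). It passed in all 13 alternatives that tested it, but with a pseudocount of 1 its log2 fold change was 0.86, under the limit of 2-fold, and its mean is too low for the filter at 1 FPKM. Ces4a, a carboxylesterase without a well-known substrate, had 2.06, 2.26 and 1.80 FPKM and then 4.13, 3.64 and 2.65 FPKM. FL12 was nearest to the CL rats, and the groups did not overlap. Its log2 fold change of 0.72 (standard error 0.20, limma adjusted p = 0.0405) lost the call in 9 of 14 alternatives, among them both scalings and leaving out any rat except FL12, with adjusted p of limma up to 0.395.

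The other Ces2 genes, whose products prefer esters with a small acyl group, did not pass. Ces2a, the highest of them, had 49.5, 68.2 and 38.7 FPKM in CL rats and 94.1, 37.7 and 78.2 FPKM in FL rats. FL5 was the lowest of all 6 rats, and FL2 and FL12 the highest. Ces2h had 21.1, 21.9 and 15.1 FPKM and then 24.2, 24.7 and 27.1 FPKM, with FL rats above CL rats. The log2 fold changes were 0.36 for Ces2a (limma adjusted p = 0.48) and 0.40 for Ces2h (limma adjusted p = 0.112). With median scaling they were 0.14 and 0.18. Leaving out single rats gave 0.10 (without FL2) to 0.76 (without FL5) for Ces2a. For Ces2h it gave 0.23 (without CL7) to 0.50 (without CL6).

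The same lowest rat of each group was seen, after the values were known, in Ces2e, Ces2i and Ces2j beside Ces2a. In all 4, CL7 was the lowest CL rat and FL5 the lowest FL rat. The low CL7 was not particular to them. It was also the lowest CL rat in Aox1, Ephx1, Sult1a1 and all 5 tested Ugt genes. The highest rats of each group differed between Ces2e and the others. Ces2e, the most uneven, had 6.18, 4.17 and 1.0 FPKM and then 4.07, 0.81 and 37.5 FPKM. FL12 stood far above any other rat in it. Ces2j had 10.97, 11.7 and 7.81 FPKM and then 17.2, 7.95 and 16.7 FPKM. Ces2g, also chosen late, lay from 5.29 to 6.78 FPKM in CL rats and from 4.51 to 5.34 FPKM in FL rats. It passed as lower with both scalings and not without them. The Ces2 genes are close copies. Only reads with 1 location were kept, so reads that they share could be lost and single values are uncertain.

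Of the epoxide hydrolases, Ephx1 was the member with the highest level of all 38 and above 99.7% of all genes in the CL group. The microsomal Ephx1, which adds water to epoxides of drugs and aromatic compounds, had 473, 671 and 471 FPKM in CL rats and 266, 874 and 1025 FPKM in FL rats. FL2 was the lowest and FL5 and FL12 were the highest of the 6 rats. The log2 fold change was 0.22 (standard error 0.48, limma adjusted p = 0.764), and it was -0.000521 with median scaling and 0.53 with quantile normalization. Without FL2 it was 0.84 with an adjusted p of 0.0366 by limma, in a range of 0.0366 to 1, whereas without FL5 it was -0.02 and without FL12 -0.14. FL2 was also the FL rat with the lowest sums of stellate cell, cholangiocyte and cycling markers. Its sums of macrophage, endothelial and, by little, hepatocyte markers were the highest of the FL rats. The part of these differences in Ephx1 was not tested.

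Soluble Ephx2, which hydrolyses epoxides of fatty acids, had 13.6, 13.9 and 10.1 FPKM in CL rats and 8.84, 15.0 and 2.40 FPKM in FL rats. FL5 was the highest rat and FL12 the lowest. The log2 fold change of -0.84 did not pass (limma adjusted p = 0.316) and was -0.11 without FL12.

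Glucuronidation had no member past the test, with 1 of 5 tested Ugt genes at an unadjusted p of limma under 0.05. Ugt2b15, which conjugates steroids and phenols, had 218, 211 and 65.2 FPKM in CL rats and 131, 219 and 41.2 FPKM in FL rats. A low rat stood in both groups, CL7 and FL12, and the groups overlapped. Its log2 fold change of -0.44 was -1.02 without CL7 and 0.24 without FL12. Ugt2b35, of the branch that conjugates steroids, had 168, 153 and 134 FPKM and then 98.7, 131 and 126 FPKM. FL rats lay below CL rats, FL2 by the most. Log2 fold change was -0.36 (standard error 0.16, limma adjusted p = 0.153), and with median scaling it passed at -0.59 (adjusted p = 0.0382, in a range to 0.333).

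Ugt1a8, the only row of the Ugt1a genes, had 55.6, 49.5 and 46.6 FPKM in CL rats and 48.0, 76.7 and 70.7 FPKM in FL rats. FL2 was among the CL rats, and FL5 and FL12 were above them. The Ugt1a genes share most of their exons, so this row may hold reads of several. The log2 fold change was 0.34 (limma adjusted p = 0.228), and 0.54 without FL2 (adjusted p = 0.0243, in a range to 0.697). Ugt2a1 and Ugt2b17, chosen after their values were seen, lay between 3.79 and 8.60 FPKM and between 24.9 and 33.2 FPKM in CL rats, and between 10.9 and 11.98 FPKM and between 22.0 and 28.4 FPKM in FL rats. All 3 Ugt2b genes had negative log2 fold changes, also with both scalings. Reads that such copies share may be lost, since only reads with 1 location were kept.

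In sulfonation, 1 of 3 abundant genes fell. Sult1c3, a member of the Sult1c branch, had 296, 269 and 255 FPKM in CL rats and 182, 110 and 81.4 FPKM in FL rats. The FL rats were all below the CL rats, with FL2 nearest to them. Its log2 difference was -1.21 (standard error 0.27, limma adjusted p = 0.0221), or 2.32-fold lower. Leaving out CL5, CL6, CL7, FL5 or FL12 ended the call, with adjusted p of limma of 0.0699, 0.0633, 0.0666, 0.076 and 0.0506, in a range from 0.00334 without FL2. Sult1c3 was 40.3% of the Sult sum in the CL group and 23.5% in the FL group. The Sult1c genes resemble each other, which leaves this value uncertain where shared reads, having more than 1 location, were dropped.

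Sult1a1, which sulfonates phenols such as paracetamol, had 292, 299 and 281 FPKM in CL rats and 296, 284 and 187 FPKM in FL rats. FL2 and FL5 lay within the range of the CL rats, and FL12 was lower. Sult1b1, which acts on thyroid hormones and small phenols, had 113, 107 and 67.2 FPKM and then 80.0, 126 and 121 FPKM, with overlap. Neither passed, with log2 fold changes of -0.21 (limma adjusted p = 0.482) and 0.20 (limma adjusted p = 0.604). The first was -0.00383 without FL12, and the second -0.03 with median scaling and -0.04 without CL7. Of the remaining 4 tested Sult genes, none passed, and their means over the 6 rats lay between 0.152 and 18.0 FPKM. The highest of these, Sult2a1, chosen after its values were seen and known for bile acids and steroids, had 18.4, 10.7 and 10.2 FPKM and then 36.1, 11.6 and 20.8 FPKM.

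**Figure D2:**
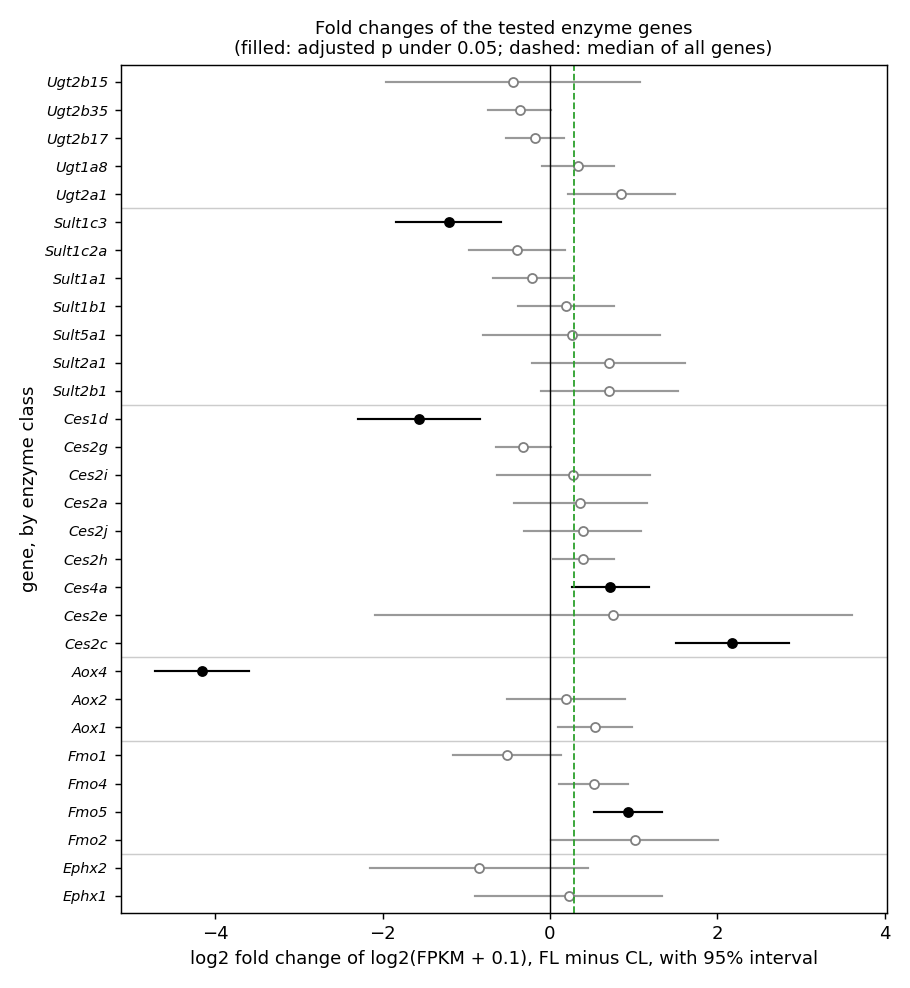
Log2 fold change (FL minus CL, on log2(FPKM + 0.1)) of 30 tested members by enzyme class, with 95% intervals of limma, a solid line at 0 and a dashed line at 0.29, the median of all genes. Filled points passed the adjusted p, and with median scaling Aox2, Ephx1 and Sult1b1 change sign, as Aox2, Ces2i and Sult5a1 do with quantile normalization.

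Supply of cofactors was followed with 20 genes under 21 symbols (1 gene stood under an old and a new name), of which 19 had a row. Of these 19, 3 were higher in the FL group (1 without CL7 and 5 without FL2) against 16.9% of all genes tested, and 1 was lower against 1.94%. With median scaling 2 were higher and 2 lower, and with quantile normalization 0 and 2. The same scalings left 1301 and 778 of all 14864 genes higher and 533 and 536 lower. PAPS is made by Papss1 and Papss2, and these went in opposite directions. Papss2, the higher of the pair, had 31.8, 36.5 and 35.0 FPKM in CL rats and 22.7, 20.7 and 20.9 FPKM in FL rats. Papss1 had 1.29, 1.62 and 1.25 FPKM and then 2.87, 2.73 and 2.67 FPKM. Neither pair of groups overlapped, and the rats of each group were close to each other. The log2 fold changes were -0.68 for Papss2 (standard error 0.11, limma adjusted p = 0.0072) and 0.95 for Papss1 (standard error 0.17, limma adjusted p = 0.0101). Papss2 passed in all 14 alternatives, and Papss1 was lost with quantile normalization only (adjusted p = 0.0938, in a range from 0.00787 for limma). The sum of the 5 genes for PAPS was 46.7 ± 2.73 FPKM in CL rats and 37.1 ± 0.735 FPKM in FL rats (mean ± SD, n = 3).

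Genes for UDP-glucuronate supply, Ugp2 and Ugdh, were the highest of the list and close to even, with log2 fold changes of -0.02 and -0.04 (limma adjusted p = 0.945 and 0.851). Slc35b1, a nucleotide transporter of the endoplasmic reticulum, had 11.4, 11.4 and 11.6 FPKM in CL rats and 22.8, 17.9 and 14.3 FPKM in FL rats. All FL rats were above the even CL rats. Slc35b1 rose by a log2 fold change of 0.65 (limma adjusted p = 0.0348), and the call was lost in 7 of 14 alternatives, among them both scalings and leaving out CL5, CL6, CL7 or FL5 (adjusted p up to 0.191). None of the 5 genes of the molybdenum cofactor, which Aox enzymes need, passed limma's adjusted p, and 1 (Gphn, chosen after its values were seen) had an unadjusted p under 0.05 and was lower with both scalings. The sum of this group was 50.4 ± 3.17 FPKM in CL rats and 45.9 ± 3.94 FPKM in FL rats (mean ± SD, n = 3), and its part in the fall of Aox4 was not tested. Of 5 genes that remove glucuronide or sulfate, Arsb was higher, with 5.65, 6.14 and 4.95 FPKM and then 8.27, 8.72 and 10.9 FPKM. Groups were apart, and Arsb is a lysosomal enzyme that takes sulfate from glycosaminoglycans and not from drugs. Arsb had a log2 fold change of 0.72 (limma adjusted p = 0.0163), lost with quantile normalization and without CL7 (adjusted p up to 0.0732).

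Other drug enzymes outside P450 were followed with 22 genes, of which 20 had a row, and 2 of these were higher against 16.9% of all genes tested, and 3 lower against 1.94%. With both scalings 0 were higher. Without CL5, FL5 or FL12 0 were higher, and without CL6, CL7 or FL2 1 was. Without CL5, CL6 or CL7 1 was lower, and without FL2 5 were. The methyltransferase Inmt, which methylates indole amines, had 13.2, 9.15 and 18.2 FPKM in CL rats and 0.48, 0.41 and 0.03 FPKM in FL rats. All FL rats were far below all CL rats, and FL12 was the lowest. The log2 fold change was -5.28 (standard error 0.55, limma adjusted p = 0.00231), and Inmt passed in all 14 alternatives. Its size was less certain, with -3.44 at a pseudocount of 1, -6.01 at one of 0.01 and -4.59 without FL12.

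Among hydrolases of this list, the paraoxonase Pon3 had 161, 197 and 183 FPKM in CL rats and 127, 135 and 110 FPKM in FL rats. Pon1, a lactonase secreted on lipoproteins, had 442, 367 and 377 FPKM and then 313, 248 and 248 FPKM. Both had all FL rats below all CL rats, but with log2 fold changes of -0.54 and -0.56 Pon3 passed and Pon1 did not (limma adjusted p = 0.0396 and 0.0632). This contrast was weak, since Pon1 passed with median scaling (limma adjusted p = 0.0414) and not with quantile normalization (0.0876), and Pon3 was lost in 8 of 14 alternatives, among them leaving out any rat except FL2 (adjusted p up to 0.126). Butyrylcholinesterase, Bche, had 0.65, 0.94 and 0.62 FPKM and then 1.29, 1.39 and 1.26 FPKM. It was higher in each FL rat, with a log2 fold change of 0.78 (limma adjusted p = 0.0465) that was lost in 10 of 14 alternatives, among them leaving out any rat except CL6 (adjusted p up to 0.522).

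Among oxidases of this list, Maob, a mitochondrial amine oxidase, had 47.4, 49.0 and 44.9 FPKM in CL rats and 32.4, 35.3 and 27.6 FPKM in FL rats. Por, the reductase that passes electrons to P450 enzymes, had 41.4, 50.9 and 57.3 FPKM and then 73.6, 84.9 and 113 FPKM. Groups did not overlap in either gene, and FL12 was the extreme rat in both. Log2 fold changes were -0.57 for Maob (limma adjusted p = 0.0195) and 0.85 for Por (limma adjusted p = 0.0221). Maob was lost without CL5, CL6 or CL7 (adjusted p up to 0.0681), and Por with both scalings and without CL5, CL6, FL5 or FL12 (adjusted p up to 0.0714).

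Regulators of these enzymes were followed with 22 genes, of which 21 were tested. Of these, 3 were higher (5 without FL2, and 1 with quantile normalization) against 16.9% of all genes tested. None of the 10 tested receptors and sensors (among them Nr1i2, Nr1i3, Ahr, Ppara and Nfe2l2, which drive such enzymes when ligands or oxidants are present) passed limma's adjusted p, and 2 had an unadjusted p under 0.05. Rxra, the highest of them and the partner of several, had 62.1, 68.5 and 58.2 FPKM and then 79.5, 59.1 and 58.7 FPKM. None of the 5 hepatocyte factors passed limma's adjusted p, and 2 had an unadjusted p under 0.05. Hnf4a, the highest regulator, had 125, 119 and 131 FPKM in CL rats and 108, 109 and 108 FPKM in FL rats. FL rats were lower and even, with a log2 fold change of -0.21 that did not pass (limma adjusted p = 0.239). With median scaling 2 genes of the regulator list were lower, with quantile normalization 1, and without CL5 and without FL2 there were 1 and 2. None of the 3 genes listed for the sex-biased liver programme passed limma's adjusted p, and 0 had an unadjusted p under 0.05.

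All 3 PAR bZip factors, clock-controlled activators that bind D-box sequences in genes of drug enzymes, were higher in the FL group. Dbp had 0.46, 0.91 and 0.81 FPKM in CL rats and 25.6, 27.1 and 31.8 FPKM in FL rats. Tef had 5.19, 5.53 and 4.54 FPKM and then 8.62, 8.14 and 11.6 FPKM, and Hlf 2.58, 3.25 and 4.24 FPKM and then 8.45, 5.0 and 7.84 FPKM. All FL rats were above all CL rats in each, and FL5 came near CL7 in Hlf. The log2 fold changes were 5.13, 0.87 and 1.05 (limma adjusted p = 0.000126, 0.0123 and 0.0249). Dbp passed in all 14 alternatives, Tef was lost with quantile normalization and without CL7 (adjusted p up to 0.0536), and Hlf in 7 of 14, among them both scalings and leaving out CL5, CL6, FL2 or FL12 (adjusted p up to 0.135).

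Promoters of the members were searched for short motifs, among them the D-box, a known site of the PAR bZip factors. Not every motif is a site of these factors or of the receptors and sensors above, so a match does not name a regulator. RefSeq promoters (GRCr8) were found for 30 of 37 member symbols, and the 250 bases before the gene start were searched on both strands, as in 33465 promoters of all genes. The motifs were chosen with the results known, and the E-box was added after the Aox4 promoter had been seen. The D-box in the form TTATGTAA was in 0.828% of all promoters and in that of 1 member, Ces1d. Its form TTACGTAA was in 0.108% of all and in no member. The E-box CACGTG was in 5.59% of all and in 2 members, Aox4 and Sult2b1. The antioxidant response element TGACNNNGC was in 10.1% of all and in 2 members, Ces2g and Ephx1, and the xenobiotic response element core GCGTG was in 25.9% of all and in 7 members, among them Ces1d and Fmo5. The STAT site TTCNNNGAA was in 7.67% of all and in 1 member, Aox2, the TATA box TATAAA in 12.9% and 3 members, and the CCAAT box in 34% and 16 members. A match is a run of letters and was not tested for binding.

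The promoters of the 4 members past both the adjusted p and 2-fold are shown, 5′ to 3′ on the strand of the gene and ending at the base before its start, with all matches to these motifs in capitals. Ces1d holds the D-box at 228 to 221 bases before the start and again, on the opposite strand, at 65 to 58, where its last base is also the first of a CCAAT box on the opposite strand (58 to 54). The other capitals in Ces1d are a CCAAT box on the opposite strand at 180 and GCGTG at 135. Aox4 holds the E-box at 102 to 97. Ces2c holds CCAAT boxes on the opposite strand at 164 and on the gene's own strand at 143. Sult1c3 holds none of the motifs. The windows are chr9:67255187-67255436 (plus strand), chr19:30046244-30046493 (plus strand), chr1:270376951-270377200 (plus strand) and chr9:7594257-7594506 (minus strand).
Aox4: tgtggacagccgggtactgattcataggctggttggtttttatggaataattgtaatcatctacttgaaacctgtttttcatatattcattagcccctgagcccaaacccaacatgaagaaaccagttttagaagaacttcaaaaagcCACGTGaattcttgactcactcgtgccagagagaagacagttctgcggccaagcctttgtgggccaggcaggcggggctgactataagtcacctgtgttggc
Ces1d: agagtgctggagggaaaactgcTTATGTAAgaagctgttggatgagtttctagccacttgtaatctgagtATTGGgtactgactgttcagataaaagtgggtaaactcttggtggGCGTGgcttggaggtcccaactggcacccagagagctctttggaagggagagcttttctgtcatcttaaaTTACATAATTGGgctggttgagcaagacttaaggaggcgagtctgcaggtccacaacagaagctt
Ces2c: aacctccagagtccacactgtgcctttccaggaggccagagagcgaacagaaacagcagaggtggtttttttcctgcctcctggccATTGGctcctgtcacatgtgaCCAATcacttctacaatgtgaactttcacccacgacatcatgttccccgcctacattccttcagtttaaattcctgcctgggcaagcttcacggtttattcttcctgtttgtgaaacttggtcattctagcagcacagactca
Sult1c3: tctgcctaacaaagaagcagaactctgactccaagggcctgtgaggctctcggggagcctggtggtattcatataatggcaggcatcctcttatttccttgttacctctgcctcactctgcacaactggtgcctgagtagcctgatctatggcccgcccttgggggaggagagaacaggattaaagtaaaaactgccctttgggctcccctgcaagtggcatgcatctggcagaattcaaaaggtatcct
Ces1d was lower in the FL group, while Dbp, Tef and Hlf, which are known as activators, were higher. The Ces1d promoter held 2 D-box matches, and whether these belong together was not tested.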

How the data were processed

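FPKM were used as deposited by the authors, who had cleaned reads with FASTX-Toolkit, mapped them with TopHat2 and kept reads with 1 location. No scaling between rats was named. The genome was named as GRCh38, a human build, while gene identifiers were those of rat Ensembl. The annotation release was not given in the sources used here, so which gene models the values rest on is unknown. Another 2 columns of values in the table belong to no sample of the series and were not used. Read counts were not used. The paper gives a number of clean reads but none for each rat, so the absolute depth of a rat is unknown. Steps in the low values of 114 U6 rows, of which 86.0% to 90.5% were whole multiples within 0.15 of a step, gave relative depths of 0.656 to 1 only. Errors are the spread over the rats of a group. Identical values above 0 made up 0.866% to 2.54% of genes in any pair of rats.

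FPKM are not counts, so limma with a trend was fitted on log2(FPKM + 0.1) over 14864 genes whose mean reached 0.1 FPKM, with Benjamini-Hochberg adjustment over these. Higher or lower means an adjusted p under 0.05, and up- or downregulated in addition a change of at least 2-fold. Standard errors were moderated by limma. The code was also run on simulated data. Classes and lists are described by counts, medians and sums, without a set test. Members and lists were chosen with earlier results of these data known.

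Named with the value of every rat were members past the adjusted p, the 3 members of each class with the highest mean, and members without overlap between groups and a log2 fold change of at least 1. From the lists, genes past the adjusted p and the 2 highest by mean were named. Other names, among them those of single markers, were chosen after their values were seen. Some genes within this rule, and counts and sums that rest on them, are not reported here.

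Calls and fold changes of members named by the rule, class medians, counts of members, classes and lists, and called list genes outside the markers were rerun with pseudocounts of 1 and 0.01, without a filter and with one at a mean of 1 FPKM, with median scaling (9201 genes above 1 FPKM in each rat), with quantile normalization, with a constant prior (no trend), with a robust prior, and without each rat. Other named genes and markers were refitted with the 2 scalings only, and sums were not. RefSeq names matched 36 of 37 member symbols. The software was limma 3.58.1 under R 4.3.3, and matplotlib 3.10.9 under Python 3.11.15.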

Additional observations from a re-analysis of the deposited data

How the results depend on the processing

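Aox4 held in 14 of 14 alternatives and Ces2c in 13 of 13, Fmo5 in 13 of 14, Ces1d in 12, Sult1c3 in 9 and Ces4a in 5. All 6 kept their direction in the alternatives that tested them.

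With a pseudocount of 1 and with the filter at a mean of 1 FPKM, 0 members were upregulated, as Ces2c fell under 2-fold in the first and under the filter in the second, and with the latter the Fmo median relative to all genes was -0.24 without Fmo2. Among all genes, 89.7% of calls were increases, 70.9% with median scaling and 59.2% with quantile normalization. With median scaling and with quantile normalization, 2 members were higher. With median scaling, quantile normalization, no filter and no trend, 1 Ces member was higher, as with the filter at 1 FPKM. With both scalings 2 Ces members were lower, and with median scaling 1 Ugt member. The cofactor list had 2 genes lower with both scalings and 0 higher with quantile normalization. The other drug enzyme list had 0 genes higher with both scalings, and 1 without a filter, with the filter at 1 FPKM and with a robust prior. The regulator list had 2 genes lower with median scaling, and with quantile normalization 1 lower and 1 higher. Under the scalings, the log2 fold changes that turned were those of Aox2 (-0.0189 with median scaling, -0.31 with quantile normalization), Ephx1 (-0.000521 with median scaling) and Sult1b1 (-0.0293 with median scaling), and, with quantile normalization, Ces2i (-0.12) and Sult5a1 (-0.36).

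Leaving out each rat in turn gave 1 to 2 members upregulated, 1 to 4 downregulated and 1 to 6 higher. By class, it gave 1 to 2 Ces members higher and 0 to 1 lower, 0 to 2 Fmo members higher, 0 to 1 Sult members lower, and 0 to 1 higher in each of Ugt, Ephx and Aox. It gave 1 to 5 genes of the cofactor list higher, 0 to 1 of the other drug enzyme list higher and 1 to 5 lower, and 2 to 5 of the regulator list higher and 0 to 2 lower. The Ugt median lay between -0.56 and -0.0236. Log2 fold changes lay between -0.00785 and 0.51 for Aox2, -0.14 and 0.84 for Ephx1, -0.0402 and 0.40 for Sult1b1, and -1.02 and 0.24 for Ugt2b15. Fewer rats also lower the power of the test, and other causes of these shifts were not tested. No paired analysis was possible because only number 5 occurs in both groups and the numbers name rats.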
